A study of Homo sapiens with 6 samples.

Results

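The proteasome genes of LoVo cells were examined after knockdown of LGR5, the R-spondin receptor that marks stem cells of the intestinal crypt. They were chosen by symbol, as PSMA, PSMB, PSMC, PSMD, PSME, PSMF or PSMG followed by a number, with pseudogenes left out and the brightest probe taken for each gene. The platform annotation named a probe for 42 such genes, and 39 of them were bright enough to be tested, of 12111 genes tested in all. No probe was named for PSMA7, PSMC5, PSMD7 or PSMD13, and the immunoproteasome's other catalytic subunits, apart from PSMB10, were not analysed here. LoVo is an established human colorectal adenocarcinoma line. All 6 samples came from cells that carried a lentiviral insert and grew in puromycin: 2 samples carried the pLKO.1 control vector (shCTL), 2 carried a first hairpin against LGR5 (shLGR5-1) and 2 carried a second hairpin (shLGR5-2). Total RNA was hybridised to Illumina bead arrays, 1 array per sample. The LGR5 probe itself gave 44.4 and 49.2 in shCTL cells, -1.1 and 7.0 in shLGR5-1 cells and 12.5 and 19.2 in shLGR5-2 cells, where 16.5 was the noise threshold.

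The proteasome degrades proteins tagged with ubiquitin. Its 20S core is a barrel in which outer rings of alpha subunits gate the entry and inner rings of beta subunits cut the substrate. The 19S regulatory particle caps the barrel: its base holds the ATPases that unfold the substrate and the receptors that bind ubiquitin, and its lid holds the enzyme that removes the ubiquitin chain. Other activators can replace the 19S cap, and dedicated chaperones assemble the core and the cap. When proteasome activity falls, the transcription factor NFE2L1 induces subunit genes through antioxidant response elements in their promoters.

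The core of that element, TGACNNNGC, was looked for on both strands of the 250 bases before the transcription start in RefSeq's promoters (GRCh38.p14), which matched 37 of the 42 genes. It occurred in 10 of the 37 promoters (27.0%), against 11% of all 27305 promoters of that length and 12% of the promoters of the tested genes. The CCAAT box, searched as CCAAT on both strands, occurred in 15 of the 37 (40.5%), against 33.0% of all promoters, and the letters of the 2 motifs overlapped in 0 of the 37. The promoters of 4 genes with an element are printed here as examples from both sides of the shLGR5-1 comparison: PSMD3 and PSMB3 were higher there, PSMD5 and PSME4 lower. PSMD9, which also held the element and rose more than PSMB3, is not printed. The 4 printed promoters were picked after the values of their genes had been seen. Each runs 5′ to 3′ towards the start, and capitals mark the matches to TGACNNNGC or CCAAT, or to their reverse complements.
PSMD3 (chr17:39980557-39980806, plus strand): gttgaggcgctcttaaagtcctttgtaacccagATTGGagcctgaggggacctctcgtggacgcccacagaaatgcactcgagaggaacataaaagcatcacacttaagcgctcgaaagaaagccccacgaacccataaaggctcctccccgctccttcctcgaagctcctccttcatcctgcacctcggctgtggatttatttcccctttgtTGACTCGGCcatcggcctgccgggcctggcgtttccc
PSMB3 (chr17:38752491-38752740, plus strand): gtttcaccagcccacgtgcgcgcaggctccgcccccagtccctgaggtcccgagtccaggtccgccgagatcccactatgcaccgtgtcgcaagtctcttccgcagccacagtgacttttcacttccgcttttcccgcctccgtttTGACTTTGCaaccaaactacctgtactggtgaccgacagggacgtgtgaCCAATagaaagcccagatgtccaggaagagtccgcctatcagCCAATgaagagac
PSMD5 (chr9:120842923-120843172, minus strand): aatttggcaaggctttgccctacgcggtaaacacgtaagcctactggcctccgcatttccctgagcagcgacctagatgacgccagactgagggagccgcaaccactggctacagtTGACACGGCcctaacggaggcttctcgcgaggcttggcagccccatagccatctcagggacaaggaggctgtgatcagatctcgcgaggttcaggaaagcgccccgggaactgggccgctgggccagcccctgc
PSME4 (chr2:53970994-53971243, minus strand): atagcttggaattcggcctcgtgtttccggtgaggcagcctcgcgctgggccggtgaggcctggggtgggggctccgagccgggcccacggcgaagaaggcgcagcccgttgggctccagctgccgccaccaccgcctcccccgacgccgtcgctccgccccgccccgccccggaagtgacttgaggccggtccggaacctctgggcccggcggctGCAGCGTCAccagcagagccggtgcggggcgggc
Genes whose promoter held the element were on both sides of the shLGR5-1 comparison. Of the 15 genes called higher there that had a promoter in the table, 5 held it (PSMB3, PSMD3, PSMD9, PSME1 and PSME2), and of the 16 called lower, 3 did (PSMD5, PSME4 and PSMG2). None of the 6 tested alpha ring promoters held TGACNNNGC, while 3 of them (PSMA2, PSMA3 and PSMA5) held CCAAT. A match of letters is a description and does not show that a factor binds there.

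Across the arrays, 20641 to 20705 of 47323 probes lay above the noise threshold, the median intensity was 10.9 to 11, and the 2 arrays of a group correlated at Pearson's r = 0.996, 0.987 and 0.994 over the 39 genes (shCTL, shLGR5-1 and shLGR5-2, log2 levels). Of 9 markers of colorectal epithelium, 7 were above the threshold on all 6 arrays. The 9 summed to 36026 to 36085 with shCTL, 45310.0 to 46115 with shLGR5-1 and 52706 to 53157 with shLGR5-2. Single markers moved apart: EPCAM and CDH1 were below both controls with shLGR5-1 and above them with shLGR5-2. KRT8, KRT18 and KRT19 were higher with both hairpins, KRT20 was lower with both, and CLDN3 and CLDN4 were lower with shLGR5-2. No fibroblast, endothelial or leukocyte marker was above the threshold on all arrays. Summed leukocyte markers read 56.5 to 71.6 with shCTL, 153.3 to 155.8 with shLGR5-1 and 132.0 to 141.6 with shLGR5-2, led by CD14, and their part in the results was not tested. Intensities are the authors' background-subtracted and normalized values, log2 fold changes are differences of log2(intensity + 16) and carry a standard error (SE) after the ± sign, with 2 arrays per group, and a gene is called when limma's p, after Benjamini-Hochberg adjustment for the 12111 genes, is below 0.05. Each array averages over many cells, so fewer cells with a transcript and less transcript per cell cannot be told apart.

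Under shLGR5-1 the subunits of the 20S core split by ring: all 6 tested alpha subunits fell at least 2-fold, and 7 of the 8 tested beta subunits rose. With a trend with the genomic length of genes removed, 5 of the 6 falls and 4 of the 7 rises were still called. The 19S particle, the activators and the chaperones had members moving far in both directions, from PSME4, 26.4-fold lower, to PSMD3, 3.64-fold higher. Over the 39 genes, 35 were called, where 71.8% of all tested genes were. Of these 19 were higher, where 40.3% of all tested genes were, and 16 lower, where 31.5% were. At least a 2-fold difference was called higher for 7 genes, against 23.5% of all tested genes, and lower for 15, against 25.9%. The median log2 fold change of the 39 was 0.36, beside 0.28 over all genes tested.

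Under shLGR5-2 1 alpha ring gene fell and 3 beta ring genes rose. Of the 39, 16 were called, against 44.2% of all genes: 11 were higher, against 21.6%, and 5 lower, against 22.6%. PSMD3 was the 1 gene to rise at least 2-fold, where 10.8% of all genes did, and 0 fell that far, where 13.2% of all genes did. The median log2 fold change was 0.31, beside 0.00 over all genes. These calls sat close to the threshold, and many were lost when 1 array was left out, which also leaves fewer degrees of freedom. The median log2 fold change of the 39 then ran from 0.20 to 0.34. Only PSMD6, PSMD10 and PSME3 kept their shLGR5-2 call in all 15 other settings tried. Both hairpin comparisons use the same 2 control arrays.

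**Figure D1:**
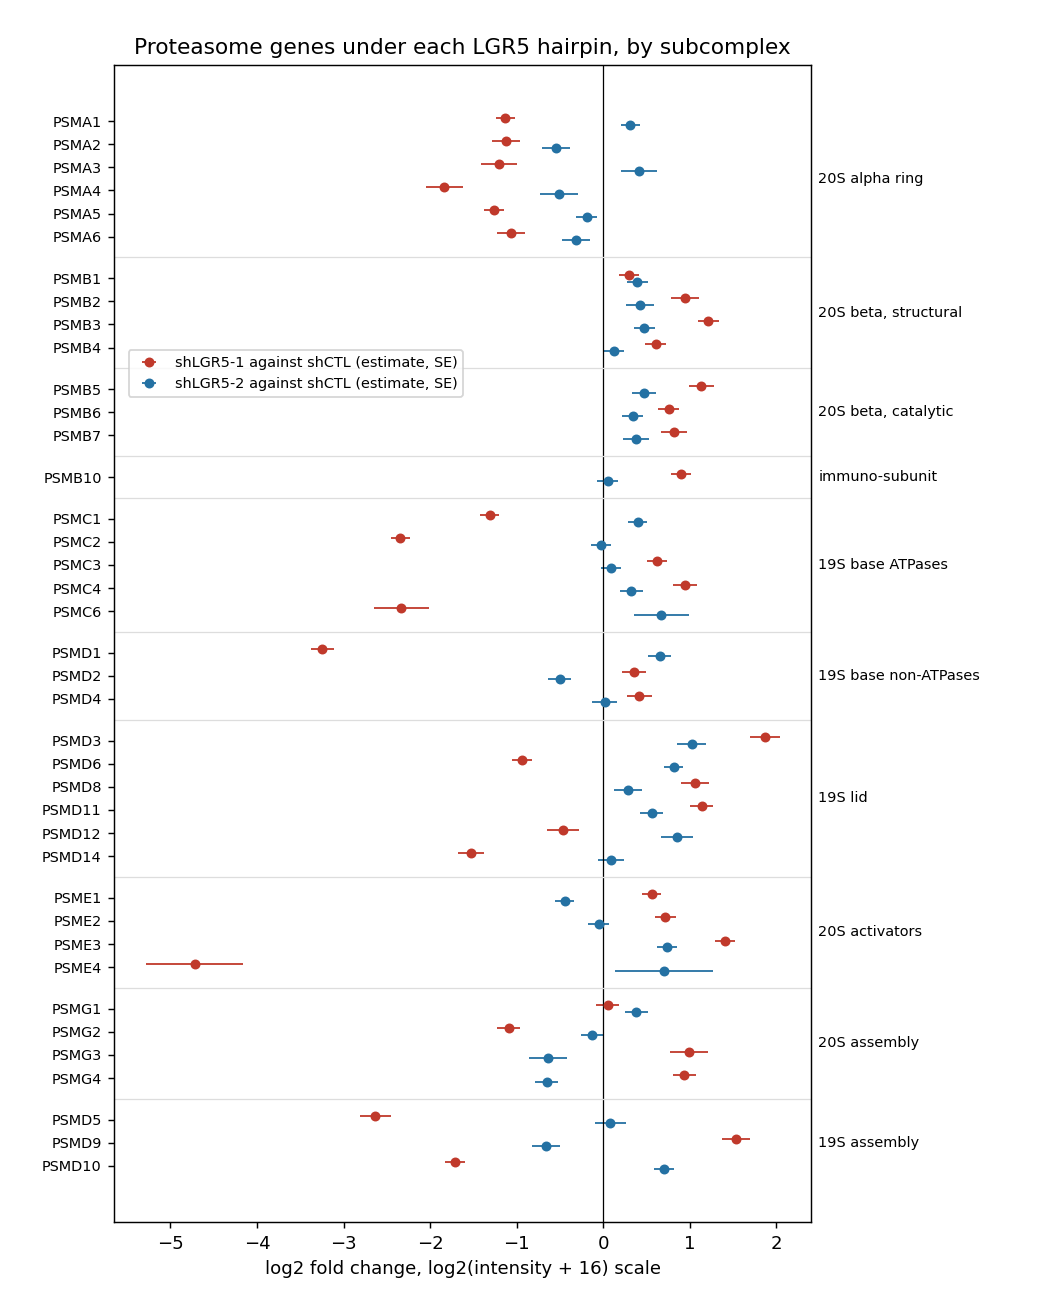
Log2 fold change of each of the 39 tested proteasome genes against shCTL, grouped by subcomplex, for shLGR5-1 and shLGR5-2. Points are fitted values, bars are 1 SE from limma and rows run from the 20S rings to the chaperones; under shLGR5-1 the 6 alpha ring genes lie between -1.84 and -1.06 and the 8 beta ring genes between 0.30 and 1.21.

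The alpha ring genes encode the subunits whose tails gate the core. Their median log2 fold change was -1.17 under shLGR5-1 and -0.25 under shLGR5-2. PSMA4 read 8499.8 and 7828 with shCTL, 1849 and 2797 with shLGR5-1, and 5792 and 5662 with shLGR5-2. Its shLGR5-1 values lay far below all others, and its shLGR5-2 values lay between those of the other groups. It fell 3.57-fold (log2 -1.84 ± 0.22, adjusted p = 0.00129) under shLGR5-1, and its shLGR5-2 value missed the threshold (log2 -0.51 ± 0.22, adjusted p = 0.117), although it passed in a fit of those 2 groups alone (adjusted p = 0.0233). PSMA5 read 7633 and 7486 in shCTL cells, 3334 and 2951 in shLGR5-1 cells and 6711 and 6519 in shLGR5-2 cells. It fell 2.4-fold (log2 -1.26 ± 0.12, adjusted p = 0.00065) under shLGR5-1 and was not called under shLGR5-2 (log2 -0.19 ± 0.12, adjusted p = 0.242), where both arrays were below both controls. PSMA2 read 444 and 400.3 with shCTL, 163 and 211 with shLGR5-1, and 272 and 297 with shLGR5-2. Its 3 groups did not overlap: it fell 2.17-fold (log2 -1.12 ± 0.16, adjusted p = 0.00237) under shLGR5-1 and 1.46-fold (log2 -0.54 ± 0.16, adjusted p = 0.0452) under shLGR5-2. That second call did not survive omission of any 1 array of the compared groups (adjusted p up to 0.192). PSMA1, PSMA3 and PSMA6 fell 2.2-fold, 2.31-fold and 2.09-fold under shLGR5-1 and were not called under shLGR5-2. A dimmer probe of PSMA1 was called higher under shLGR5-2 in limma's fit over all kept probes (log2 0.64, adjusted p = 0.00987). PSMA1 was also called higher there with the gene length trend removed (log2 0.38, adjusted p = 0.0434). By array, the median of the 6 genes stood at -1.27 and -1.03 from the control mean under shLGR5-1 and at -0.23 and -0.27 under shLGR5-2 (log2). PSMA8, the alpha subunit known from testis, was below the noise threshold on all 6 arrays.

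**Figure D2:**
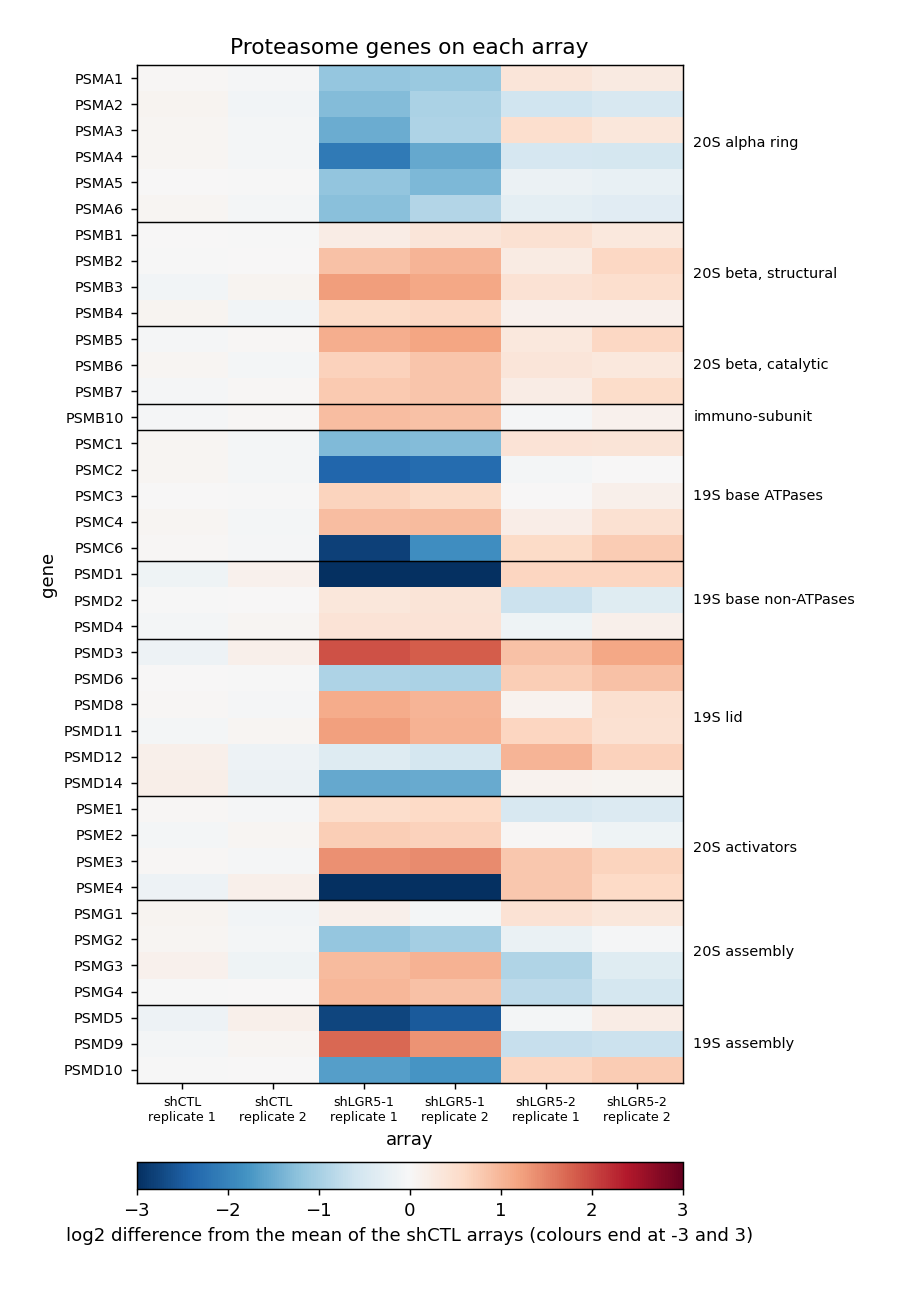
Log2 difference of each array from the mean of the shCTL arrays, for the 39 tested proteasome genes in order of subcomplex. Colour gives the difference and is clipped at -3, which PSMD1 and PSME4 pass with shLGR5-1; the alpha ring rows are low on both shLGR5-1 arrays and the beta ring rows high.

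The 3 catalytic beta subunits rose together under shLGR5-1. PSMB5, which carries the chymotrypsin-like site that clinical proteasome inhibitors block, read 2909.5 and 3081 with shCTL, 6411 and 6769 with shLGR5-1, and 3762 and 4602 with shLGR5-2. Both shLGR5-1 arrays were above all others, and both shLGR5-2 arrays were above both controls. PSMB5 rose 2.19-fold (log2 1.13 ± 0.14, adjusted p = 0.00155) with shLGR5-1 and 1.39-fold (log2 0.47 ± 0.14, adjusted p = 0.048) with shLGR5-2. PSMB6, the caspase-like subunit, read 6540.4 and 6053 in shCTL cells, 10128 and 11201 in shLGR5-1 cells and 8138 and 7784 in shLGR5-2 cells. It rose 1.69-fold (log2 0.76 ± 0.12, adjusted p = 0.00335) with shLGR5-1 and was not called with shLGR5-2 (log2 0.34 ± 0.12, adjusted p = 0.0745). PSMB7, the trypsin-like subunit, read 5446 and 5738 with shCTL, 9681 and 10041 with shLGR5-1, and 6482 and 8181 with shLGR5-2. It rose 1.76-fold (log2 0.82 ± 0.15, adjusted p = 0.00568) with shLGR5-1 and was not called with shLGR5-2 (log2 0.38 ± 0.15, adjusted p = 0.098), and its groups did not overlap either. PSMB10, which takes the place of PSMB7 in the immunoproteasome, read 2426 and 2587 in shCTL cells, 4782 and 4597 in shLGR5-1 cells and 2458 and 2738 in shLGR5-2 cells. It rose 1.87-fold (log2 0.90 ± 0.12, adjusted p = 0.00182) with shLGR5-1, while its shLGR5-2 arrays overlapped the controls (log2 0.05 ± 0.12, adjusted p = 0.76). The thymus subunit PSMB11 was below the threshold on all 6 arrays.

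The structural beta subunits complete the inner rings. PSMB3 read 4578 and 5121 with shCTL, 11615 and 10879 with shLGR5-1, and 6567 and 6885 with shLGR5-2, in 3 groups without overlap. It rose 2.32-fold (log2 1.21 ± 0.12, adjusted p = 0.000774) under shLGR5-1 and 1.39-fold (log2 0.47 ± 0.12, adjusted p = 0.0297) under shLGR5-2. PSMB2 read 3085 and 3159 in shCTL cells, 5745 and 6316 in shLGR5-1 cells and 3703 and 4788 in shLGR5-2 cells. It rose 1.92-fold (log2 0.94 ± 0.16, adjusted p = 0.00441) under shLGR5-1 and was not called under shLGR5-2 (log2 0.43 ± 0.16, adjusted p = 0.0867). PSMB1, the 1 beta gene not called under shLGR5-1 (log2 0.30 ± 0.12, adjusted p = 0.074), read 11695 and 11347 with shCTL, 13550.3 and 14788 with shLGR5-1, and 15876 and 14405 with shLGR5-2. Its controls were below all other arrays, and it rose 1.31-fold (log2 0.39 ± 0.12, adjusted p = 0.0498) under shLGR5-2. PSMB4 rose 1.52-fold under shLGR5-1 and was not called under shLGR5-2. The median of the 8 beta genes was 0.86 under shLGR5-1 (0.83 and 0.86 by array) and 0.39 under shLGR5-2 (0.29 and 0.41 by array). The shLGR5-2 calls of PSMB1, PSMB3 and PSMB5 were each lost when either control array or shLGR5-2 replicate 2 was left out, with adjusted p-values of up to 0.171, 0.125 and 0.184 over all arrays left out in turn.

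**Figure D3:**
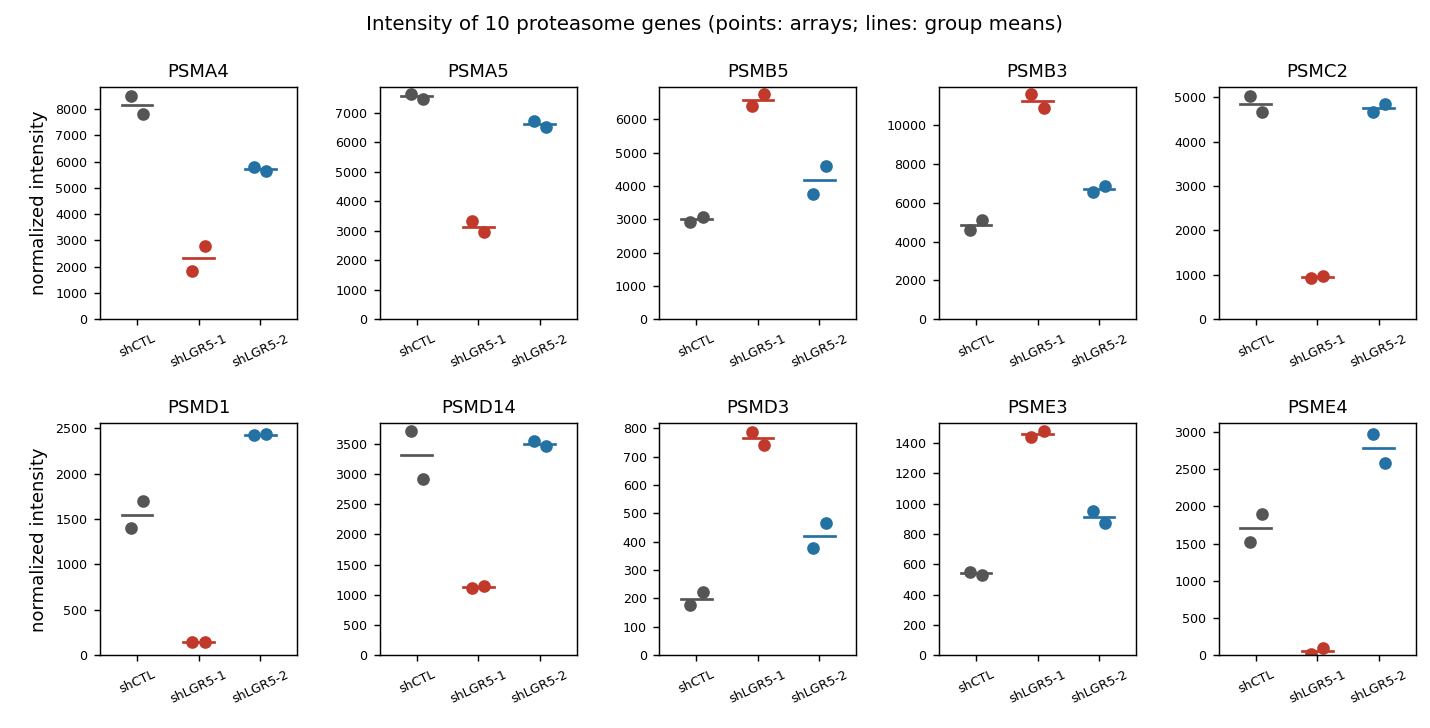
Normalized intensity on each array of 10 proteasome genes, in 3 groups of 2 arrays: shCTL, shLGR5-1 and shLGR5-2. Each panel has its own linear axis from 0, in arbitrary intensity units, horizontal lines are group means and points are single arrays; PSMA4, PSMA5, PSMC2, PSMD1, PSMD14 and PSME4 are lowest with shLGR5-1, and PSMB3, PSMB5, PSMD3 and PSME3 highest.

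The ATPases of the 19S base form 1 ring, and its 5 tested genes divided under shLGR5-1 into 3 lower and 2 higher. PSMC2 read 5021 and 4664 with shCTL, 919 and 963 with shLGR5-1, and 4669 and 4842 with shLGR5-2. It fell 5.07-fold (log2 -2.34 ± 0.11, adjusted p = 0.00017) with shLGR5-1, and its shLGR5-2 arrays lay between the 2 controls (log2 -0.03 ± 0.11, adjusted p = 0.871). PSMC6 read 2406 and 2294 in shCTL cells, 326 and 629.8 in shLGR5-1 cells and 3504 and 4024 in shLGR5-2 cells, with the 2 shLGR5-1 arrays well apart from each other. It fell 5.04-fold (log2 -2.33 ± 0.31, adjusted p = 0.00195) with shLGR5-1, and with shLGR5-2 both arrays were above both controls without a call (log2 0.67 ± 0.31, adjusted p = 0.144, and adjusted p = 0.0131 in a fit of those 2 groups alone). PSMC1 read 6837 and 6277 with shCTL, 2609 and 2649 with shLGR5-1, and 8739 and 8544 with shLGR5-2. It fell 2.48-fold (log2 -1.31 ± 0.11, adjusted p = 0.000503) with shLGR5-1 and rose 1.32-fold (log2 0.40 ± 0.11, adjusted p = 0.0382) with shLGR5-2, a call lost when any 1 of the 6 arrays was left out (adjusted p up to 0.147). PSMC4 went the other way, at 1149 and 1049.5 in shCTL cells, 2106 and 2152 in shLGR5-1 cells and 1266 and 1505 in shLGR5-2 cells. It rose 1.92-fold (log2 0.94 ± 0.14, adjusted p = 0.00242) with shLGR5-1 and was not called with shLGR5-2 (log2 0.33 ± 0.14, adjusted p = 0.112). PSMC3, at 1849 and 1791 with shCTL, 2879 and 2719.8 with shLGR5-1, and 1844 and 2033 with shLGR5-2, rose 1.53-fold (log2 0.62 ± 0.12, adjusted p = 0.00609) with shLGR5-1, a call lost with the trend with gene length removed (log2 0.19, adjusted p = 0.195), and was not called with shLGR5-2 (log2 0.09 ± 0.12, adjusted p = 0.57).

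The base also holds scaffold and receptor subunits that are not ATPases. PSMD1, the scaffold of the base to which a deubiquitinase and its receptor dock, read 1405 and 1694 with shCTL, 148 and 148 with shLGR5-1, and 2424 and 2439 with shLGR5-2. The 2 shLGR5-1 arrays were nearly equal and far below the rest. PSMD1 fell 9.49-fold (log2 -3.25 ± 0.13, adjusted p = 0.000146) under shLGR5-1 and rose 1.57-fold (log2 0.65 ± 0.13, adjusted p = 0.0152) under shLGR5-2. PSMD2, the scaffold that receives ubiquitin shuttle proteins, read 2026 and 2069.7 in shCTL cells, 2589 and 2664 in shLGR5-1 cells and 1304 and 1587 in shLGR5-2 cells. It was higher than both controls with shLGR5-1 without a call (log2 0.36 ± 0.14, adjusted p = 0.0644) and fell 1.42-fold (log2 -0.50 ± 0.14, adjusted p = 0.0353) with shLGR5-2. PSMD4, a ubiquitin receptor, read 2608 and 2851 with shCTL, 3630.1 and 3649 with shLGR5-1, and 2493 and 3054 with shLGR5-2. It rose 1.33-fold (log2 0.41 ± 0.14, adjusted p = 0.0481) with shLGR5-1, and its shLGR5-2 arrays spanned the controls (log2 0.02 ± 0.14, adjusted p = 0.932). The PSMD4 call was lost when any 1 control or shLGR5-1 array was left out (adjusted p up to 0.186) and with the gene length trend removed (log2 0.17, adjusted p = 0.327). Under shLGR5-2 the PSMD1 call was lost without shCTL replicate 1 or either shLGR5-2 array (up to 0.0654), and the PSMD2 call without any array but shLGR5-2 replicate 2 (up to 0.142).

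Of the 6 tested lid genes, 3 rose and 2 fell under shLGR5-1, and 4 rose and 0 fell under shLGR5-2. PSMD14, the deubiquitinase that removes the ubiquitin chain, read 3706 and 2909.5 with shCTL, 1114 and 1141 with shLGR5-1, and 3549.9 and 3455 with shLGR5-2. It fell 2.89-fold (log2 -1.53 ± 0.15, adjusted p = 0.000763) under shLGR5-1, and its shLGR5-2 arrays lay between the 2 controls (log2 0.09 ± 0.15, adjusted p = 0.65). PSMD6 read 5206 and 5134 in shCTL cells, 2693 and 2682 in shLGR5-1 cells and 8680.0 and 9542 in shLGR5-2 cells. It fell 1.92-fold (log2 -0.94 ± 0.11, adjusted p = 0.00131) under shLGR5-1 and rose 1.76-fold (log2 0.81 ± 0.11, adjusted p = 0.00447) under shLGR5-2. PSMD3, whose promoter is printed above, read 176 and 222 with shCTL, 786 and 741 with shLGR5-1, and 376 and 464 with shLGR5-2. It had the largest rise of the 39 genes under each hairpin: 3.64-fold (log2 1.87 ± 0.17, adjusted p = 0.000619) with shLGR5-1 and 2.03-fold (log2 1.02 ± 0.17, adjusted p = 0.00813) with shLGR5-2. PSMD11 read 179 and 194 in shCTL cells, 457 and 402 in shLGR5-1 cells and 302 and 263 in shLGR5-2 cells, also in 3 groups without overlap. It rose 2.2-fold (log2 1.14 ± 0.14, adjusted p = 0.00131) with shLGR5-1 and 1.47-fold (log2 0.56 ± 0.14, adjusted p = 0.0255) with shLGR5-2. PSMD12 read 1041 and 827 with shCTL, 701 and 634 with shLGR5-1, and 1895 and 1504 with shLGR5-2. Its shLGR5-1 arrays were below both controls without a call (log2 -0.47 ± 0.18, adjusted p = 0.07), and it rose 1.81-fold (log2 0.85 ± 0.18, adjusted p = 0.0181) under shLGR5-2. PSMD8 rose 2.08-fold under shLGR5-1 and was not called under shLGR5-2. Under shLGR5-2 the PSMD3 call was lost without shCTL replicate 1 (adjusted p = 0.0534), the PSMD11 call without either control or shLGR5-2 replicate 1 (up to 0.122), and the PSMD12 call without shCTL replicate 2 or shLGR5-2 replicate 1 (up to 0.0984).

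Among the alternative activators of the core, 3 rose and 1 fell under shLGR5-1. PSME4, a large nuclear activator that opens the core without ATP, read 1518 and 1899.5 with shCTL, 20 and 101 with shLGR5-1, and 2967 and 2589 with shLGR5-2. It fell 26.4-fold (log2 -4.72 ± 0.56, adjusted p = 0.0013) under shLGR5-1, the largest fall of the 39 genes, and the fold was 14.6 without shLGR5-1 replicate 1 and 47.6 without shLGR5-1 replicate 2. Its gap between those 2 arrays was also the widest of any gene of the set between replicates. Both shLGR5-2 arrays were above both controls without a call (log2 0.70 ± 0.56, adjusted p = 0.357), and that value was called when shLGR5-1 replicate 1 or 2 was left out of the fit (adjusted p = 0.0425 and 0.0438) or in a fit of those 2 groups alone (0.0224). PSME3, which forms a nuclear activator ring of its own, read 552 and 531 in shCTL cells, 1437 and 1482 in shLGR5-1 cells and 955 and 872 in shLGR5-2 cells, with no overlap between the groups. It rose 2.65-fold (log2 1.40 ± 0.11, adjusted p = 0.000449) under shLGR5-1 and 1.67-fold (log2 0.74 ± 0.11, adjusted p = 0.00631) under shLGR5-2. PSME1 and PSME2, the interferon-inducible pair that builds the other activator ring, rose under shLGR5-1, but neither call held with the gene length trend removed: PSME1 then stood at log2 -0.08, adjusted p = 0.519, and PSME2 at 0.09, adjusted p = 0.552. PSME1 read 7857 and 7535 with shCTL, 11138 and 11572 with shLGR5-1, and 5542 and 5752 with shLGR5-2. It rose 1.47-fold (log2 0.56 ± 0.11, adjusted p = 0.00656) with shLGR5-1 and fell 1.36-fold (log2 -0.45 ± 0.11, adjusted p = 0.0251) with shLGR5-2, the latter lost without any 1 array of the compared groups (up to 0.104). PSME2 read 4587 and 5054 in shCTL cells, 8045 and 7819 in shLGR5-1 cells and 4895 and 4394 in shLGR5-2 cells. It rose 1.65-fold (log2 0.72 ± 0.12, adjusted p = 0.00441) with shLGR5-1, and its shLGR5-2 arrays overlapped the controls (log2 -0.05 ± 0.12, adjusted p = 0.748). The inhibitor PSMF1 was below the noise threshold on all 6 arrays.

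Chaperones of the 19S base bind the ATPases while the base is put together. PSMD5 read 283 and 352 with shCTL, 33.6 and 41.8 with shLGR5-1, and 301 and 372 with shLGR5-2. It fell 6.2-fold (log2 -2.63 ± 0.18, adjusted p = 0.000312) under shLGR5-1, to values that were still above the noise threshold, and its shLGR5-2 arrays overlapped the controls (log2 0.08 ± 0.18, adjusted p = 0.746). PSMD10, also known as the oncoprotein gankyrin, read 737 and 740.3 in shCTL cells, 223 and 205 in shLGR5-1 cells and 1166 and 1269 in shLGR5-2 cells. It fell 3.29-fold (log2 -1.72 ± 0.12, adjusted p = 0.000296) under shLGR5-1 and rose 1.63-fold (log2 0.71 ± 0.12, adjusted p = 0.0075) under shLGR5-2. PSMD9 was the reverse, at 113 and 125 with shCTL, 430.2 and 326 with shLGR5-1, and 68.1 and 70.7 with shLGR5-2. It rose 2.9-fold (log2 1.53 ± 0.16, adjusted p = 0.000959) under shLGR5-1 and fell 1.58-fold (log2 -0.66 ± 0.16, adjusted p = 0.0276) under shLGR5-2, a call lost without any 1 array of the compared groups (adjusted p up to 0.139).

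Chaperones of the 20S core act in pairs on the alpha ring, PSMG1 with PSMG2 and PSMG3 with PSMG4. PSMG2 read 3449 and 3156 with shCTL, 1468 and 1609 with shLGR5-1, and 2859.5 and 3198 with shLGR5-2 and fell 2.13-fold (log2 -1.09 ± 0.13, adjusted p = 0.00126) under shLGR5-1, with its shLGR5-2 arrays overlapping the controls (log2 -0.12 ± 0.13, adjusted p = 0.469). PSMG1 was the 1 gene of the 39 not called in any of the 3 comparisons (shLGR5-1, log2 0.05 ± 0.14, adjusted p = 0.752). With the gene length trend removed the PSMG2 call was lost (log2 -0.32, adjusted p = 0.0815), and PSMG1 stood near it (log2 -0.34, adjusted p = 0.0749). PSMG1 was then called higher under shLGR5-2 (log2 0.47, adjusted p = 0.041) and with shLGR5-2 against shLGR5-1 (log2 0.81, adjusted p = 0.00401). The members of the second pair both rose under shLGR5-1. PSMG3 read 465 and 383 in shCTL cells, 826 and 881 in shLGR5-1 cells and 217 and 324 in shLGR5-2 cells. It rose 1.99-fold (log2 0.99 ± 0.22, adjusted p = 0.0109) with shLGR5-1, a call lost without shCTL replicate 2 or shLGR5-1 replicate 2 (up to 0.0743) or with the gene length trend removed (0.196), and was below both controls with shLGR5-2 without a call (log2 -0.64 ± 0.22, adjusted p = 0.0689). PSMG4 read 801 and 813 with shCTL, 1614 and 1503 with shLGR5-1, and 464 and 554 with shLGR5-2. It rose 1.91-fold (log2 0.94 ± 0.13, adjusted p = 0.00235) with shLGR5-1 and fell 1.57-fold (log2 -0.65 ± 0.13, adjusted p = 0.0151) with shLGR5-2, the latter lost without either control or shLGR5-2 replicate 1 (up to 0.0821).

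The 2 hairpins were also compared directly with each other. Of the 39 genes, 36 were called, against 73.3% of all tested genes. Of these, 17 were higher with shLGR5-2 than with shLGR5-1, against 33.6% of all genes, and 19 were lower, against 39.8%. At least a 2-fold difference was called for 14 in the first direction, against 27% of all genes, and for 4 in the second, against 25.4%. All 6 alpha ring genes were higher with shLGR5-2 (median log2 difference 1.20), and 7 of the 8 beta ring genes were lower (median -0.50). With the gene length trend removed, 5 of the 6 alpha genes were still called higher, all but PSMA6, and 3 of the 8 beta genes still called lower (PSMB2, PSMB3 and PSMB7). PSMB4 and PSMB6 then stood at log2 0.29, adjusted p = 0.0831 and 0.35, adjusted p = 0.0548, on the other side of 0. The largest differences were higher values with shLGR5-2. PSME4 was higher by 42.9-fold (log2 5.42 ± 0.56, adjusted p = 0.000749), PSMD1 by 14.9-fold (log2 3.90 ± 0.13, adjusted p = 5.61e-05) and PSMC6 by 8.03-fold (adjusted p = 0.000779). In the other direction, PSMD9 was lower by 4.57-fold (log2 -2.19 ± 0.16, adjusted p = 0.000287), PSMG3 by 3.09-fold (log2 -1.63 ± 0.22, adjusted p = 0.0018) and PSMG4 by 3.01-fold (log2 -1.59 ± 0.13, adjusted p = 0.0004). The PSME4 difference was 23.8-fold without shLGR5-1 replicate 1 and 77.4-fold without shLGR5-1 replicate 2. Of the 19S base ATPases, PSMC1, PSMC2 and PSMC6 were higher and PSMC3 and PSMC4 lower with shLGR5-2 than with shLGR5-1, and both lower calls were lost with the gene length trend removed (adjusted p = 0.977 and 0.197). PSMB1, PSMD4 and PSMG1 were not called, though PSMG1 was called higher with the gene length trend removed.

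Proteins that work on the proteasome but lie outside the symbol rule were read from a list of 10, all tested: 3 rose and 5 fell under shLGR5-1 (median log2 -0.35), and 2 rose and 0 fell under shLGR5-2 (0.20). The shares called higher and lower among all tested genes were 40.3% and 31.5% under shLGR5-1 and 21.6% and 22.6% under shLGR5-2. With the gene length trend removed, 3 were called higher and 3 lower under shLGR5-1 (median -0.04), and SEM1, a small lid subunit, turned from lower to higher (log2 0.54, adjusted p = 0.00966). USP14 and UCHL5, the deubiquitinases that dock on the 19S base, were both among the falls. USP14 read 395 and 461 with shCTL, 22.8 and 9.4 with shLGR5-1, and 577 and 648 with shLGR5-2, with 1 of the 2 shLGR5-1 arrays below the noise threshold. With that array set at the threshold, its level was at least 12.5-fold lower under shLGR5-1 (adjusted p = 0.000245 in the fit of the values as measured). UCHL5 read 826 and 798 in shCTL cells, 228 and 266 in shLGR5-1 cells and 767 and 589 in shLGR5-2 cells and fell 3.16-fold (log2 -1.66 ± 0.17, adjusted p = 0.000844). ECPAS, whose yeast counterpart ties the 19S particle to the core, read 984 and 1175 with shCTL, 126 and 137 with shLGR5-1, and 1509 and 1607 with shLGR5-2. It fell 7.42-fold (log2 -2.89 ± 0.14, adjusted p = 0.00017) under shLGR5-1 and rose 1.44-fold (log2 0.53 ± 0.14, adjusted p = 0.032) under shLGR5-2, the latter lost without shLGR5-1 replicate 2 or any 1 control or shLGR5-2 array (up to 0.129). PAAF1, a chaperone of the ATPases, went the other way, at 523 and 484 in shCTL cells, 1083 and 1095 in shLGR5-1 cells and 569.9 and 622 in shLGR5-2 cells, and rose 2.13-fold (log2 1.09 ± 0.12, adjusted p = 0.000928) under shLGR5-1. USP14, UCHL5 and PAAF1 were not called under shLGR5-2 (log2 0.50 ± 0.23, adjusted p = 0.143; -0.27 ± 0.17, adjusted p = 0.259; and 0.24 ± 0.12, adjusted p = 0.157).

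NFE2L1, its relative NFE2L2, their DNA-binding partners and the proteins that release and process NFE2L1 formed a list of 11 genes, with 9 tested, of which 7 rose and 2 fell under shLGR5-1 (median log2 0.77) and 1 rose and 0 fell under shLGR5-2 (0.33). The shares among all tested genes are those given for the previous list, and with the gene length trend removed 5 were called higher and 2 lower under shLGR5-1. NFE2L1 itself read 419 and 440.5 with shCTL, 630.2 and 613 with shLGR5-1, and 354 and 352 with shLGR5-2. It rose 1.43-fold (log2 0.52 ± 0.11, adjusted p = 0.00835) with shLGR5-1, a call lost with the gene length trend removed (log2 0.29, adjusted p = 0.0637), and was not called with shLGR5-2 (log2 -0.27 ± 0.11, adjusted p = 0.0953). NGLY1, the enzyme that strips sugars from NFE2L1 and is needed for its activity, read 579 and 499.8 in shCTL cells, 79.6 and 175 in shLGR5-1 cells and 850.4 and 776 in shLGR5-2 cells. It fell 4.1-fold (log2 -2.04 ± 0.34, adjusted p = 0.00404) with shLGR5-1, and its shLGR5-2 arrays were above both controls without a call (log2 0.58 ± 0.34, adjusted p = 0.223). NFE2L2, the related oxidative stress factor, read 2134 and 2008 with shCTL, 85.7 and 119.9 with shLGR5-1, and 2014 and 1516 with shLGR5-2. It fell 17.7-fold (log2 -4.15 ± 0.21, adjusted p = 0.000183) under shLGR5-1, and its 2 shLGR5-2 arrays did not differ from the controls by a call (log2 -0.24 ± 0.21, adjusted p = 0.398). UFD1 and VCP, which extract NFE2L1 from the membrane of the endoplasmic reticulum, were higher. UFD1 read 50.5 and 32.3 in shCTL cells, 168 and 156 in shLGR5-1 cells and 98.7 and 132 in shLGR5-2 cells; it rose 3.14-fold (log2 1.65 ± 0.22, adjusted p = 0.00174) with shLGR5-1 and 2.3-fold (log2 1.20 ± 0.22, adjusted p = 0.01) with shLGR5-2, the latter lost without shCTL replicate 2 or shLGR5-2 replicate 2 (up to 0.0590). VCP read 958 and 1019 with shCTL, 1697 and 1684 with shLGR5-1, and 1241 and 1263 with shLGR5-2 and rose 1.7-fold (log2 0.77 ± 0.11, adjusted p = 0.0022) with shLGR5-1, without a call under shLGR5-2 (log2 0.34 ± 0.11, adjusted p = 0.0557). MAFG, a DNA-binding partner of NFE2L1, read 104 and 140.2 in shCTL cells, 269 and 258 in shLGR5-1 cells and 112 and 125 in shLGR5-2 cells and rose 2.04-fold (log2 1.03 ± 0.16, adjusted p = 0.00351) with shLGR5-1, with overlapping values under shLGR5-2 (log2 -0.03 ± 0.16, adjusted p = 0.912).

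Genes that supply ubiquitin or shuttle tagged proteins to the proteasome formed a list of 14, with 10 tested: 4 rose and 4 fell under shLGR5-1 (median log2 0.22), and 2 rose and 1 fell under shLGR5-2 (0.15), beside the same shares of all tested genes. With the gene length trend removed, 2 were called higher and 4 lower under shLGR5-1, and the median was -0.22. The shuttle RAD23B read 620.5 and 503 with shCTL, 31.6 and 31.4 with shLGR5-1, and 709.7 and 544 with shLGR5-2 and fell 12.1-fold (log2 -3.60 ± 0.18, adjusted p = 0.000182) under shLGR5-1. UBQLN1, another shuttle, read 1464 and 1744 in shCTL cells, 407 and 378 in shLGR5-1 cells and 1822 and 1717 in shLGR5-2 cells and fell 3.95-fold (log2 -1.98 ± 0.14, adjusted p = 0.000312). ZFAND5, which stimulates proteasome activity, read 4205 and 4436 with shCTL, 792 and 869.6 with shLGR5-1, and 4554 and 4307 with shLGR5-2 and fell 5.13-fold (log2 -2.36 ± 0.12, adjusted p = 0.000179). None of the 3 was called under shLGR5-2 (log2 0.15 ± 0.18, adjusted p = 0.54; 0.15 ± 0.14, adjusted p = 0.428; and 0.04 ± 0.12, adjusted p = 0.824). ZFAND2A, a stress-induced regulator of the 19S particle, behaved otherwise, at 1046 and 1011 in shCTL cells, 1234 and 1218 in shLGR5-1 cells and 359.7 and 374 in shLGR5-2 cells. It fell 2.73-fold (log2 -1.45 ± 0.11, adjusted p = 0.000691) under shLGR5-2, was not called under shLGR5-1 (log2 0.25 ± 0.11, adjusted p = 0.0841), and was 3.25-fold (log2 -1.70 ± 0.11, adjusted p = 0.000175) lower with shLGR5-2 than with shLGR5-1.

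Genomic span, the length of the gene from start to end in RefSeq's annotation, went with the shLGR5-1 fold changes across genes. Over all 12104 tested genes with a span, Spearman's rho between span and log2 fold change was -0.33 under shLGR5-1 and 0.01 under shLGR5-2; over the 39 proteasome genes it was -0.39 and 0.16. These are descriptions across genes, which share the arrays. The median log2 fold change of all genes ran from 0.71 in the fifth of genes with the shortest span (up to 7.87 kb) through 0.61, 0.27 and -0.32 to -0.63 in the fifth with the longest (over 83.0 kb). The alpha ring genes had a median span of 27.3 kb and the beta ring genes 10.4 kb, beside 15.3 kb over the 39 and 26.9 kb over all genes. With the trend with span removed on each array, the alpha ring stayed lower under shLGR5-1 in 5 of 6 genes (median -1.06), all but PSMA1 (adjusted p = 0.214). Of the 8 beta genes, 4 of the 7 calls were left (PSMB2, PSMB3, PSMB5 and PSMB7), and PSMB4, PSMB6 and PSMB10 were lost. Over the 39, the count called higher went from 19 to 11, and the median from 0.36 to -0.06. Over all genes the share called higher went from 40.3% to 40.4%, and the median stayed at 0.28. The part of span, or of what goes with it, in the calls that were lost and in those that remained was not tested.

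**Figure D4:**
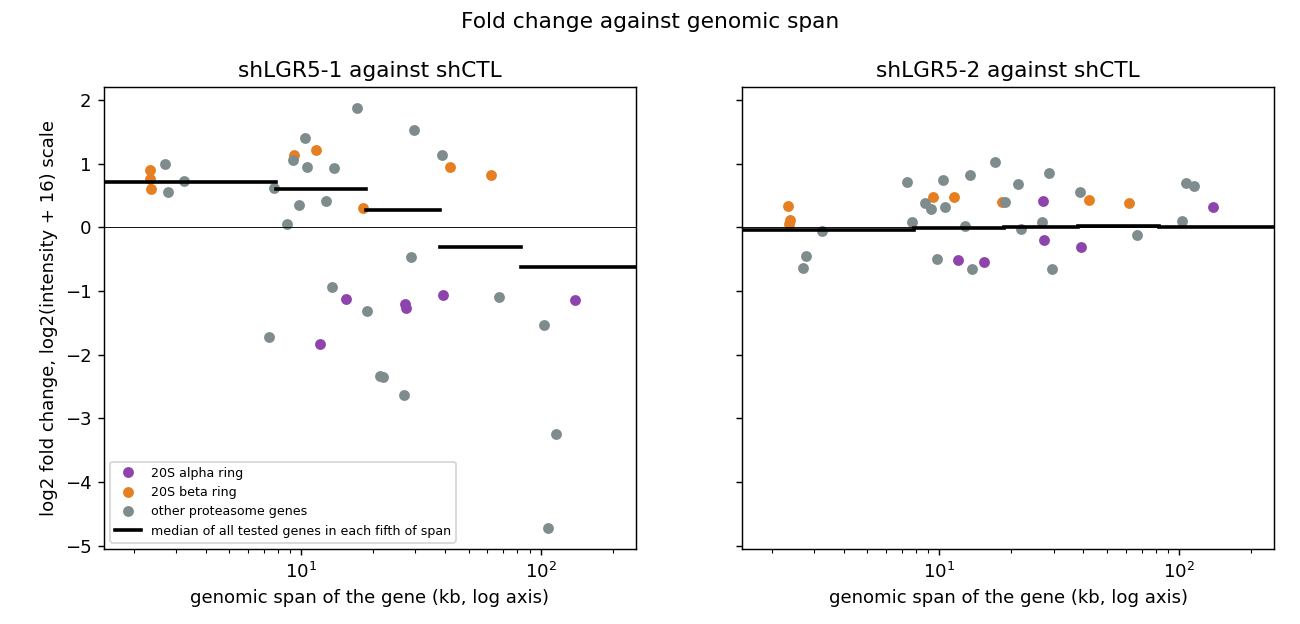
Log2 fold change against genomic span (kb, log axis) for the 39 tested proteasome genes under shLGR5-1 and shLGR5-2, coloured by subcomplex; black segments are the medians of all tested genes in 5 equal groups by span. Under shLGR5-1 the medians go from 0.71 to -0.63 with span and the alpha ring genes lie below the segments, while under shLGR5-2 the segments stay near 0.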

How the data were processed

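RNA from 6 samples of LoVo cells, 2 per group by their titles, was measured on Illumina bead arrays. The submitters' processing notes name GenomeStudio, Illumina's software; the version was not given in the sources used here. The deposited intensity values are linear, and the authors had subtracted background and normalized between arrays, as the values show: 30.5% lie below 0 on each array, and the medians are nearly equal. Such scaling makes each level relative to the rest of the array. Another 12 value columns stayed out, since no label ties their names to a sample.

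Gene names came from the series' platform annotation and a RefSeq gene table (GRCh38.p14): 30113 probes had 1 gene, 8 several and 17202 none listed. Symbols were updated by Entrez identifier for 30074 probes and by accession for 18, and 21 were kept as given. Values were set to at least 0, 16 was added and log2 taken, which understates changes of dim genes. A probe was kept if it exceeded 16.5 (the 5% tail of a noise SD of 10.0, from the values below 0) on both arrays of at least 1 group; 21792 were kept. The brightest kept probe stood for a gene. Of the 39 genes, 13 had several kept probes, and 0 of these had opposite calls under either hairpin. Cross-hybridisation was not tested. The filter keeps a gene that is bright in 1 group only, so the 39 tested genes are not all the genes of the rule.

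All 6 arrays entered 1 fit with group as its term (limma 3.58.1, R 4.3.3; 3 residual and 2.01 prior degrees of freedom), with 3 contrasts, two-sided p-values and Benjamini-Hochberg adjustment over 12111 genes; the median SE was 0.173. The procedure was tested on simulated data. Labels do not say that replicates were separate cultures, so the spread behind the p-values is that between these samples and may be technical. All 6 arrays held distinct values. Same-numbered replicates did not deviate together (correlations 0.017, 0.0068 and 0.0021), so no pairing was used. No slide or scan date was given by which a batch could be tested.

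The members, subcomplex lists and companion lists were chosen with earlier results of these data known, so lists carry counts and medians and no test. Beyond these rules, NFE2L1, NGLY1 and SEM1 were named after their values had been seen. Values on every array are given for the catalytic subunits and PSMD14, for up to 2 called rises and falls per subcomplex and hairpin, for genes called in opposite directions, for the 3 largest differences each way between the hairpins, and for the 4 companions per list with the smallest adjusted p. Alternatives covered the offset, the filter, the probe rule, the scaling, the groups fitted, the replicate number, genomic span (a spline of 4 degrees of freedom per array) and each array left out. Figures used matplotlib 3.10.9.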

Additional observations from a re-analysis of the deposited data

Results flagged for a closer look

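The 2 hairpins moved 7 of the 39 proteasome genes in opposite directions against the controls, each called under both hairpins. A call in limma's direct contrast was also required for this list, so it adds no support of its own. The same count over all tested genes is not given here. Of all tested genes, 71.8% were called under shLGR5-1 and 44.2% under shLGR5-2. The values are log2 differences of shLGR5-2 against shLGR5-1 with their SE. PSMC1, PSMD1, PSMD6 and PSMD10 were lower with shLGR5-1 and higher with shLGR5-2. Their differences were 1.71 ± 0.11 (adjusted p = 0.000193) for the ATPase PSMC1, 3.90 ± 0.13 (adjusted p = 5.61e-05) for the base scaffold PSMD1, 1.75 ± 0.11 (adjusted p = 0.000187) for the lid subunit PSMD6 and 2.42 ± 0.12 (adjusted p = 9.65e-05) for the base chaperone PSMD10. PSMD9, PSME1 and PSMG4 were higher with shLGR5-1 and lower with shLGR5-2. Their differences were -2.19 ± 0.16 (adjusted p = 0.000287) for the base chaperone PSMD9, -1.01 ± 0.11 (adjusted p = 0.000826) for the activator PSME1 and -1.59 ± 0.13 (adjusted p = 0.0004) for the core chaperone PSMG4. Both contrasts against the controls share the control arrays, so 2 low or 2 high control values move both in the same direction. The log2 difference between the hairpins does not use the control values. Of the 7, PSMD6 and PSMD10 kept their shLGR5-2 call in all 15 other settings, and PSMC1, PSMD1, PSMD9, PSME1 and PSMG4 did not. The PSME1 difference between the hairpins was no longer called with the span trend removed (adjusted p = 0.0937); those of the other 6 were called in all 15.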

How the results depend on the processing

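Under shLGR5-1, 25 of the 35 calls held in all 15 other settings, and PSMA1, PSMB4, PSMB6, PSMB10, PSMC3, PSMD4, PSME1, PSME2, PSMG2 and PSMG3 lost theirs in at least 1; under shLGR5-2, 3 of 16 held, and between the hairpins 20 of 36. Leaving out 1 array at a time gave 17 to 20 genes higher and 16 to 16 lower under shLGR5-1 (median 0.34 to 0.38), 4 to 10 higher and 0 to 5 lower under shLGR5-2 (0.20 to 0.34), and 15 to 17 higher and 15 to 17 lower between the hairpins (-0.40 to -0.25). Leaving out an array also leaves fewer degrees of freedom, and the shares of all genes called in those fits are not given here. The ranges of counts therefore do not show whether proteasome genes lost calls more often than other genes. The 5 genes lower under shLGR5-2 became 3 with a floor of 1 and no offset, 3 without the filter, and 2 with the span trend removed. The share of all genes called lower was 18.6%, 11.8% and 20.4% in these settings, beside 22.6% in the main fit. With the replicate block, a term for the replicate number that the check of pairing did not favour, the shLGR5-2 counts were 7 higher and 3 lower. Of all genes, 19.6% were then called higher and 20.9% lower. Removing the span trend gave 11 higher under shLGR5-1, against 40.4% of all genes, and 9 lower between the hairpins, against 37.9%. The medians became -0.055 under shLGR5-1, 0.38 under shLGR5-2 and 0.26 between the hairpins, with the all-gene medians at 0.28, 0.07 and -0.14. Centring the arrays moved the medians to 0.45 under shLGR5-1 and -0.46 between the hairpins, with the all-gene medians at 0.37 and -0.25. Without the filter they were 0.20 under shLGR5-2 and -0.199 between the hairpins. Signs of single values changed only for genes that were not called in that setting. With the span trend removed these were PSMB4 (-0.055), PSME1 (-0.085) and PSMG1 (-0.34) under shLGR5-1, PSMC2 (0.039) and PSME2 (0.055) under shLGR5-2, and PSMB4 (0.29) and PSMB6 (0.35) between the hairpins. Under shLGR5-2, PSMC2 was 0.0032 with centred arrays and PSMD4 -0.0582 with the mean of its probes. Leaving out arrays turned the sign of small values: PSMG1 under shLGR5-1 (-0.055 to 0.16), and under shLGR5-2 PSMB10 (-0.027 to 0.13), PSMC2 (-0.078 to 0.028), PSMD4 (-0.13 to 0.16), PSMD5 (-0.069 to 0.23), PSMD14 (-0.081 to 0.27) and PSME2 (-0.13 to 0.024). The causes of these changes were not tested. Values of dim probes, such as PSME4 and PSMD5 under shLGR5-1, carry noise that is large beside their signal.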

Other observations

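The proteasome genes lie on many chromosomes, and 3 chromosomes carry at least 4 of the tested ones. On chromosome 17, PSMB3, PSMB6, PSMD3, PSMD11 and PSME3 rose under shLGR5-1 and PSMD12 was not called, and under shLGR5-2 all but PSMB6 rose. Their median log2 fold change was 1.17 under shLGR5-1 and 0.65 under shLGR5-2, beside 0.72 and 0.16 over the 732 tested genes of that chromosome. On chromosome 14, PSMB5, PSME1 and PSME2 rose and PSMA3, PSMA6, PSMC1 and PSMC6 fell under shLGR5-1, with a median of -1.06 beside 0.23 over 404 genes. On chromosome 1, PSMB2, PSMB4 and PSMD4 rose and PSMA5 fell, with a median of 0.51 beside 0.34 over 1242 genes. The G and C content of the 250 bases before the start had a Spearman's rho of -0.04 with the shLGR5-1 fold change over 34 proteasome genes and of 0.07 over 9668 tested genes, given as a description across genes. These comparisons were chosen after the values had been seen.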
